A study of Mus musculus with 6 samples.

Results

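A group of 10 TNF receptor superfamily members was followed across 3 immortalized lines of mouse keratinocytes, which form the epidermis. The members were the transcript clusters whose platform gene symbol was one of 10 listed names, which gave 10 of the 23332 clusters on the array. Of these, 8 carried 1 symbol (Tnfrsf26, Tnfrsf1a, Tnfrsf1b, Tnfrsf9, Tnfrsf11b, Tnfrsf12a, Tnfrsf19 and Tnfrsf21), and 2 carried both Tnfrsf22 and Tnfrsf23 and are called here by their cluster numbers, 6972413 and 6972415. A transcript cluster groups the exons that the platform places in a locus and has 1 value per array. The members were chosen by family name and by a measured value, the large rescue minus null difference of Tnfrsf26. All rescue minus null values of the members, and all values of Tnfrsf26, are therefore given as descriptions, with no test.

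The rescue line was the α3-null line (MK546) stably transfected with human integrin α3, the null line was MK546 itself, and the wild-type line (MK116) was derived separately, from wild-type newborn mice, so null and wild type also differ in origin. Each genotype is represented by 1 line, and the labels do not say whether a line is clonal. All 3 carry the SV40 large T antigen, which inactivates p53 and Rb, and grew at 33 °C in low-calcium medium with 10 units/ml interferon-γ. Each line was measured on 2 arrays, 6 in all. They are named biological replicates, but separate cultures are not mentioned, and the p-values below therefore reflect only the array-to-array spread, which may be technical.

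TNF receptors are membrane proteins with cysteine-rich outer domains that bind trimeric ligands of the TNF family. Some signal through TRAF adaptors to NF-κB, some carry a death domain that recruits FADD or TRADD and can start caspase-driven death, and some lack a working tail and act as decoys. In skin, keratinocytes respond to TNF with chemokines and other inflammatory genes. In the mouse, Tnfrsf22, Tnfrsf23 and Tnfrsf26 lie next to each other on chromosome 7 and have no death domain, and the products of Tnfrsf22 and Tnfrsf23 bind the death ligand TRAIL as decoys.

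Median intensity over all clusters ran from 96.6 to 108 across the 6 arrays, lowest in null cells. Itga3, the targeted gene, averaged 1219 ± 2.04 in rescue cells, 952 ± 63.2 in null cells and 6325 ± 54.1 in wild-type cells (SD, n = 2 each), which checks the labels of null and wild type. The rescue construct is human, so mouse probes may read it only in part. The basal keratinocyte genes Krt5 and Krt14 averaged 13440 and 11000 in rescue cells, 13780 and 11910 in null cells and 14650 and 12410 in wild-type cells. Of 11 immune-cell markers 8 lay below the array median on all 6 arrays, including Ptprc (26.8 in rescue, 26.4 in null and 23.3 in wild type), as did 4 of 8 fibroblast, 6 of 6 endothelial and 5 of 5 melanocyte markers. The other immune-cell markers averaged, in rescue, null and wild-type cells, 550, 439 and 595 (Cd68), 99.3, 137 and 181 (Nkg7), and 89.3, 94.4 and 109 (Cd3e). The other fibroblast markers averaged, in the same order, 203, 225 and 239 (Col1a1) and 129, 130 and 143 (Col1a2). Col3a1 averaged 158.5, 183 and 192, and Pdgfra 93.1, 89.6 and 103. None of these 30 markers was called in any of the 3 comparisons with limma. At an unadjusted p under 0.05, 1 of 30 passed in null minus wild type, 0 of 30 passed in rescue minus null and 5 of 30 passed in rescue minus wild type. Keratinocyte markers did move: 4 of 8 (Trp63, Itga6, Dsg3 and Col17a1) were called higher in null than in wild type and lower in rescue than in null, and the summed intensity of all 8 was 35550 to 36600 in rescue cells, 40790 to 41730 in null cells and 38330 to 39110 in wild-type cells. Their part in the results below was not tested. The summed intensity of the immune-cell markers was 981 to 1042 in rescue cells, 882 to 1028 in null cells and 1143 to 1171 in wild-type cells. That of the fibroblast markers was 680 to 698 in rescue cells, 714 to 756 in null cells and 777 to 802 in wild-type cells. The fibroblast sums did not overlap between lines, and no marker was at 0. A lower value can mean less RNA per cell or fewer cells that express the gene, which these bulk arrays cannot tell apart.

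**Figure D1:**
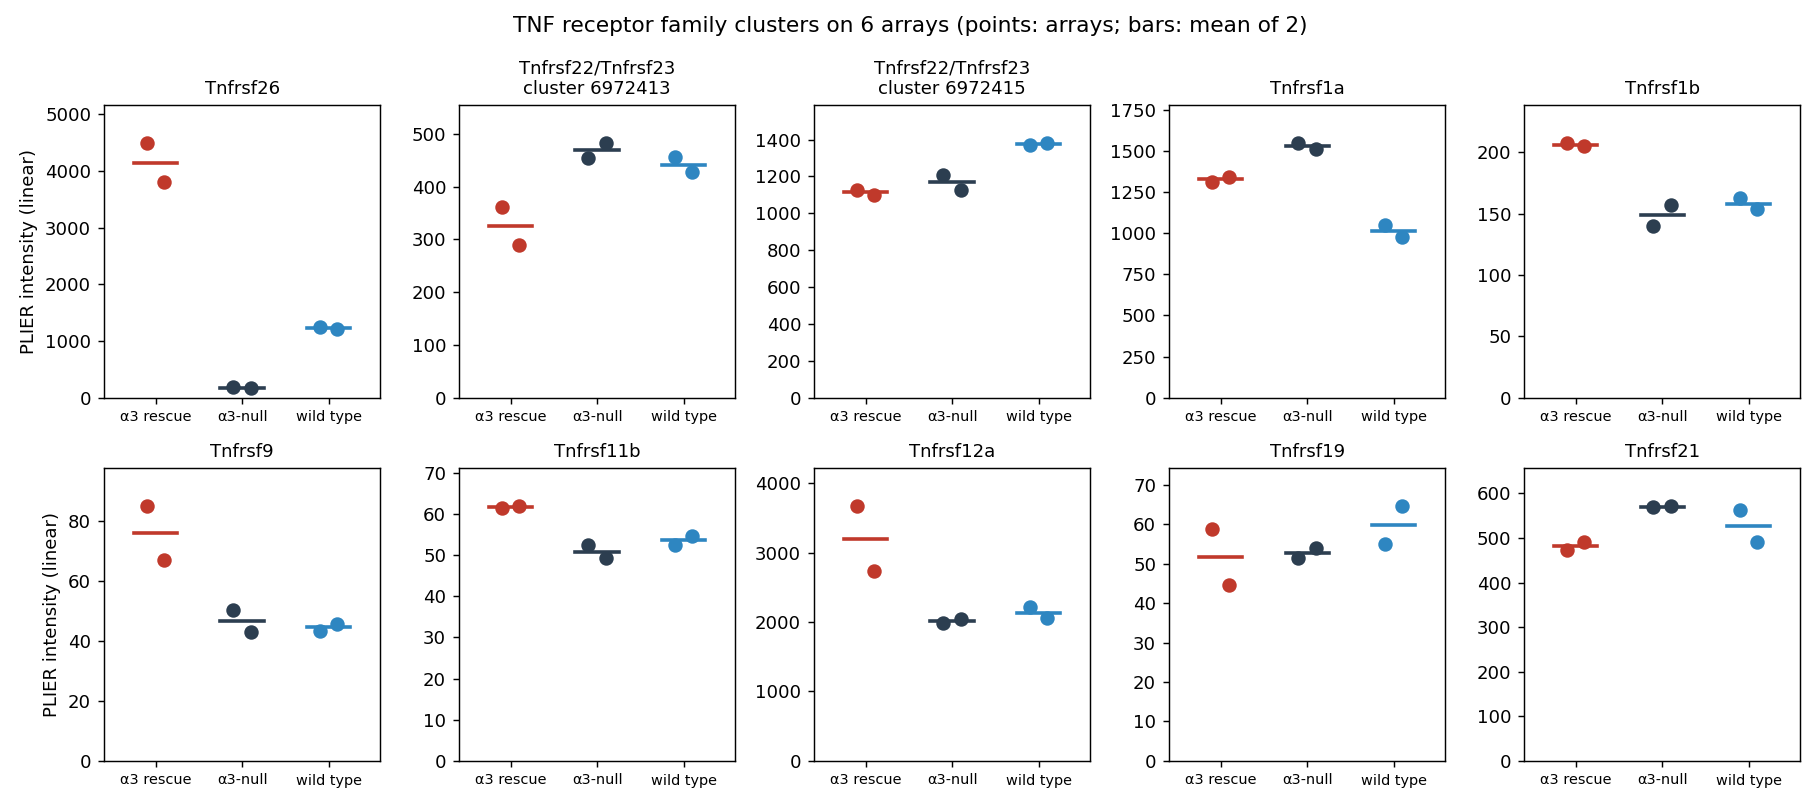
PLIER intensity (linear axis from 0, own scale in each panel) of the 10 clusters in α3 rescue, α3-null and wild-type cells; points are single arrays and bars the mean of 2. Tnfrsf26 stood at 4492 and 3796 in rescue cells, 185 and 165 in null cells and 1237 and 1214 in wild-type cells, while the other 9 clusters kept their line means within a 1.71-fold range.

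The promoters of 3 members that were called higher in rescue than in wild-type cells are shown first, because these genes moved the same way in that comparison. Each of these calls was lost under some alternative settings, as given below. The genes did not share a pattern over the lines: rescue minus null was -0.20 for Tnfrsf1a, 0.65 for Tnfrsf12a and 0.55 for Tnfrsf9. They are RefSeq sequences of build GRCm38.p6, from 250 bases before to 50 bases after the annotated start, 5′ to 3′, and Tnfrsf9 has 2 annotated starts. Capitals mark matches on either strand to the AP-1 motif TGANTCA or to the 10-base NF-κB consensus.
Tnfrsf1a at chr6:125349473-125349772, plus strand: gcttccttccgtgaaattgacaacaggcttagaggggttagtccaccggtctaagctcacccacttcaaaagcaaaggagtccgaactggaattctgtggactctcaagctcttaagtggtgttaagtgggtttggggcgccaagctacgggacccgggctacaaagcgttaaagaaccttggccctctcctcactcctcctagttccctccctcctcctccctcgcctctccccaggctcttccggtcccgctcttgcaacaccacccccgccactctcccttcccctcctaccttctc
Tnfrsf12a at chr17:23677400-23677699, minus strand: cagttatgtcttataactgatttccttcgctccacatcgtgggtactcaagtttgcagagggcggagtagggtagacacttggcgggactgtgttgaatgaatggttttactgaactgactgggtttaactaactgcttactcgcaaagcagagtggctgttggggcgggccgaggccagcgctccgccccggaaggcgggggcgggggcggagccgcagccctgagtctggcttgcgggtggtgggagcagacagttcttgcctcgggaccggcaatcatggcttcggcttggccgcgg
Tnfrsf9, upstream start at chr4:150919905-150920204, plus strand: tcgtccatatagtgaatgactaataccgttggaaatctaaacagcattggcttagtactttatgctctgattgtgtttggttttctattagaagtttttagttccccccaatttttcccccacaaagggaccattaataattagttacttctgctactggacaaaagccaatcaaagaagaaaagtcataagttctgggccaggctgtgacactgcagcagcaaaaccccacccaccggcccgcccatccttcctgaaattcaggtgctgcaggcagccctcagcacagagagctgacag
Tnfrsf9, downstream start at chr4:150927749-150928048, plus strand: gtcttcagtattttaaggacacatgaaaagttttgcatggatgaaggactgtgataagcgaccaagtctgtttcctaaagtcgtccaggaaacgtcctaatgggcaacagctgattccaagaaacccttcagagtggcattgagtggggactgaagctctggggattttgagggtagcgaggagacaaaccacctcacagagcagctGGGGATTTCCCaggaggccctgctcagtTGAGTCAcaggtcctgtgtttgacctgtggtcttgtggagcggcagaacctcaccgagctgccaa
Of these 4 promoters only that of the downstream Tnfrsf9 start held a match. It had overlapping NF-κB matches between positions -43 and -33 from the start and an AP-1 match from -15 to -9, with no overlap between the 2 motifs. Among all 32851 promoters of the same length, 7.81% held the AP-1 motif and 8.46% the NF-κB consensus. The table held 9 promoters for 7 of the 10 member genes, and the 5 not printed, of Tnfrsf19 (2 starts), Tnfrsf1b, Tnfrsf21 and Tnfrsf23, had no match to either motif. A match is a run of letters, and none of these data measured binding.

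Tnfrsf26, whose ligand is not established, varied most among the members. It read 4492 and 3796 in rescue cells, 185 and 165 in null cells, and 1237 and 1214 in wild-type cells. The order was rescue above wild type above null, with no overlap between arrays of different lines. On the log2(intensity + 16) scale, which understates the change of dim genes and on which all differences below are given, rescue minus null was 4.44, rescue minus wild type was 1.74 and null minus wild type was -2.70. In intensity the rescue mean was 23.7 times the null mean and 3.38 times the wild-type mean. The null mean was 0.143 of the wild-type mean. Over the 15 alternative settings these differences ranged from 4.14 to 4.56, from 1.62 to 1.86 and from -2.80 to -2.43.

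The 2 clusters shared by Tnfrsf22 and Tnfrsf23, TRAIL decoy receptor genes, did not follow their neighbour. Because each carries both symbols, the signal of the paralogs cannot be separated. Cluster 6972413 gave 361 and 289 in rescue cells, 454 and 483 in null cells, and 456 and 427 in wild-type cells. Its rescue arrays lay below all others, and null and wild type overlapped. Rescue minus wild type was -0.43 ± 0.12 (SE) and missed the threshold (adjusted p = 0.0583, 0.0223 to 0.227 over 14 alternatives, 4 of which passed), and null minus wild type was 0.08 (95% interval -0.20 to 0.37, adjusted p = 0.724). Cluster 6972415 gave 1125 and 1101 in rescue cells, 1210 and 1125 in null cells, and 1368 and 1382 in wild-type cells. Rescue and null were close, with their nearest arrays less than 1 unit apart, and wild type was above both. It was called lower in rescue than in wild type (-0.30 ± 0.07, adjusted p = 0.0317), a call lost in 6 of 14 alternatives, among them each fit without a rescue or wild-type array (adjusted p 0.0845 to 0.166). Null minus wild type was -0.23 (95% interval -0.39 to -0.07, adjusted p = 0.0672).

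**Figure D2:**
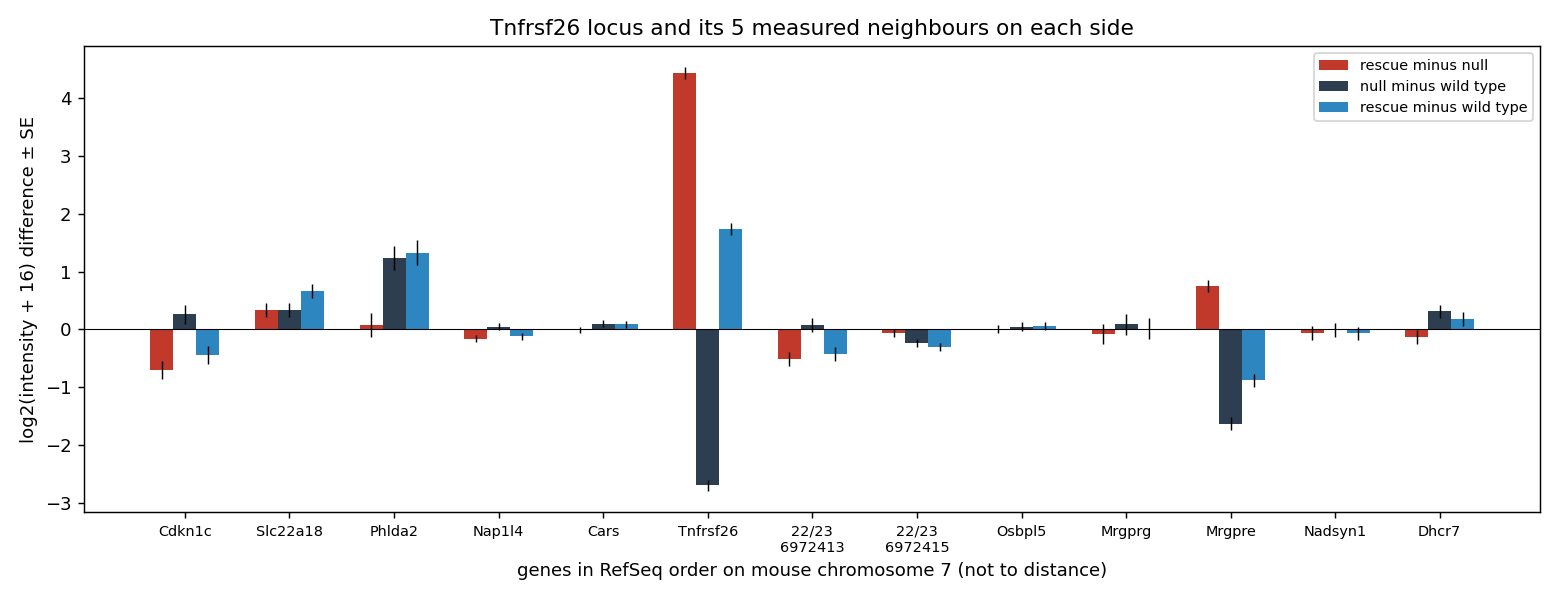
Differences between lines on the log2(intensity + 16) scale (bars, with the standard error of the difference) for Tnfrsf26, the 2 shared clusters of Tnfrsf22 and Tnfrsf23, and the 5 nearest measured genes on each side in RefSeq order on mouse chromosome 7; distances are not drawn. Tnfrsf26 reached 4.44 in rescue minus null, while its nearest measured neighbours Cars and Osbpl5 stayed at -0.01 and 0.01.

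The neighbours on chromosome 7 were examined because the 3 genes share a locus. On the side of Tnfrsf26 the nearest measured gene was Cars, a cysteinyl-tRNA synthetase gene, at 2735 and 2885 in rescue cells, 2796 and 2871 in null cells, and 2647 and 2623 in wild-type cells. On the side of Tnfrsf23 it was Osbpl5, an oxysterol-binding protein gene, at 518 and 572 in rescue cells, 544 and 537 in null cells, and 519 and 526 in wild-type cells. Neither was called in any comparison. Among the 10 neighbours, 2 were called in rescue minus null (Mrgpre, an orphan receptor gene, 0.75, adjusted p = 0.0102; Cdkn1c, an imprinted inhibitor of the cell cycle, -0.70, adjusted p = 0.0384), 2 in null minus wild type (Mrgpre, -1.63; Phlda2, an imprinted gene of placental growth, 1.24) and 3 in rescue minus wild type (Mrgpre, -0.88; Phlda2, 1.33; Slc22a18, a transporter gene, 0.67). Mrgpre gave 89.1 and 107 in rescue cells, 52.1 and 51.0 in null cells, and 192 and 195 in wild-type cells, with wild type highest, unlike Tnfrsf26. In fits without an array, Phlda2 lost its null minus wild type call in 3 (adjusted p up to 0.0827) and its rescue minus wild type call in 2 (up to 0.0765), Slc22a18 lost its call in 3 (up to 0.0825), and Mrgpre lost its rescue minus wild type call in 1 (0.0511). The rescue minus null call of Mrgpre was lost without null replicate 1 and without null replicate 2 (adjusted p up to 0.0583), and that of Cdkn1c in 7 of 15 alternatives (up to 0.161). The share of all clusters called was 15.4% in rescue minus null, 15.3% in null minus wild type, and again 15.4% in rescue minus wild type.

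Tnfrsf1a encodes TNF receptor 1, the death-domain receptor through which TNF acts on most cells. It read 1313 and 1339 in rescue cells, 1548 and 1509 in null cells, and 1049 and 975 in wild-type cells. The 3 lines did not overlap, with null highest and wild type lowest. Null minus wild type was 0.59 ± 0.07 (SE, adjusted p = 0.00341), the only one of 9 tested clusters called in that comparison and one that kept its call in 15 of 15 alternatives (adjusted p 6.78e-04 to 0.0380). Rescue minus wild type was 0.39 ± 0.07 (adjusted p = 0.0154), lost in 5 of 15 alternatives: without the intensity trend (0.0509), without wild-type replicate 1 (0.0580) or 2 (0.114), and without rescue replicate 1 (0.0558) or 2 (0.0552). Rescue minus null, described only, was -0.20.

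Tnfrsf1b encodes TNF receptor 2, which binds TNF but has no death domain. It gave 208 and 205 in rescue cells, 140 and 157 in null cells, and 162 and 154 in wild-type cells. The rescue arrays lay above all others, while null and wild type overlapped. Rescue minus wild type was 0.35 ± 0.09 (95% interval 0.13 to 0.58) and did not pass (adjusted p = 0.0548, 0.0186 to 0.229 over 15 alternatives, 2 of which passed). Null minus wild type was -0.08 (95% interval -0.31 to 0.14, adjusted p = 0.654), and rescue minus null was 0.43.

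Tnfrsf12a encodes Fn14, the receptor of the cytokine TWEAK, known from wound repair. Its arrays read 3669 and 2729 in rescue cells, 1983 and 2041 in null cells, and 2212 and 2061 in wild-type cells. Rescue was highest, with its 2 arrays far apart, and null lay just below wild type. Rescue minus wild type was 0.56 ± 0.14 (adjusted p = 0.0453), lost in 8 of 15 alternatives, among them 5 of the 6 fits without an array (0.0668 to 0.201). The exception was the fit without rescue replicate 2, the lower of the 2 rescue arrays. Null minus wild type was -0.09 (95% interval -0.42 to 0.25, adjusted p = 0.770), and rescue minus null was 0.65.

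Tnfrsf9 encodes CD137, best known as a costimulatory receptor of activated T cells. It gave 84.9 and 67.1 in rescue cells, 50.3 and 43.0 in null cells, and 43.4 and 45.7 in wild-type cells, at the 36.1st percentile of all clusters by mean, and no detection call was at hand. The rescue arrays lay above the other 4, and null and wild type overlapped. Rescue minus wild type was 0.60 ± 0.14 (adjusted p = 0.0421), lost in 8 of 14 alternatives including each of the 6 fits without an array (0.0531 to 0.162). Null minus wild type was 0.05 (95% interval -0.30 to 0.40, adjusted p = 0.886), and rescue minus null was 0.55. Cd3e, a T-cell marker, averaged 89.3 in rescue cells, 94.4 in null cells and 109 in wild-type cells, and was not called.

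Of the other members, none was called in a tested comparison. Tnfrsf11b, which encodes osteoprotegerin, a secreted decoy for RANKL and TRAIL, gave 61.3 and 61.9 in rescue cells, 52.5 and 49.2 in null cells, and 52.5 and 54.7 in wild-type cells. Its rescue arrays lay above the rest, with rescue minus wild type at 0.16 (95% interval -0.11 to 0.42, adjusted p = 0.406), null minus wild type at -0.06 (-0.33 to 0.21) and rescue minus null at 0.22. Tnfrsf21, which encodes the death-domain protein DR6, gave 474 and 492 in rescue cells, 569 and 571 in null cells, and 563 and 490 in wild-type cells. The null arrays were the highest, and rescue and wild type overlapped (rescue minus wild type -0.12, 95% interval -0.33 to 0.09; null minus wild type 0.11, -0.09 to 0.32; rescue minus null -0.23). Tnfrsf19, which encodes the orphan receptor TROY of hair follicles and brain, gave 58.8 and 44.5 in rescue cells, 51.4 and 54.1 in null cells, and 55.0 and 64.6 in wild-type cells. Rescue overlapped both other lines, null lay just below wild type, and the intervals were wide (rescue minus wild type -0.17, 95% interval -0.53 to 0.19; null minus wild type -0.14, -0.50 to 0.23; rescue minus null -0.03).

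**Figure D3:**
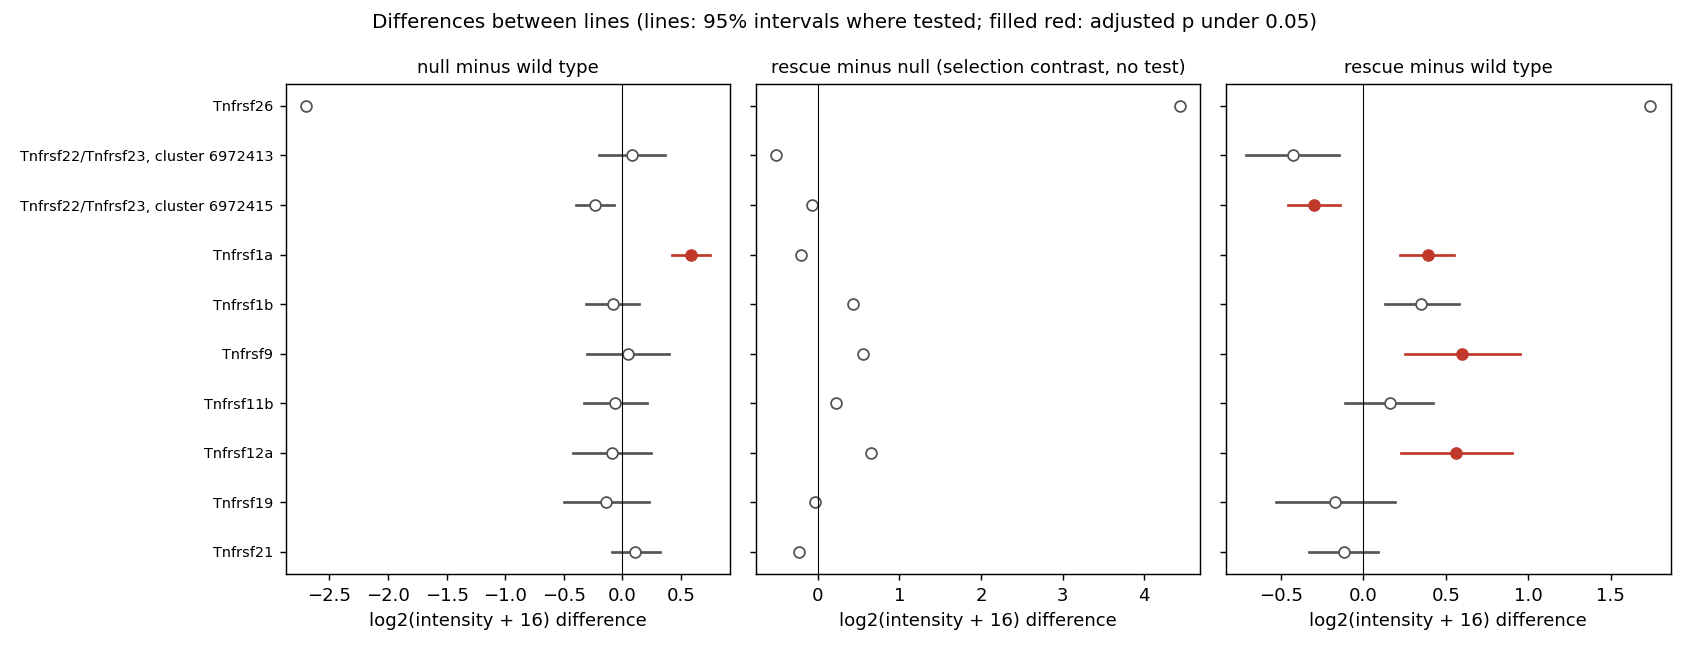
Differences between lines for each cluster on the log2(intensity + 16) scale, in 3 panels with separate axes; horizontal lines are 95% intervals and filled red points passed an adjusted p of 0.05, with no interval drawn where no test was made. Tnfrsf1a passed in null minus wild type (0.59), and Tnfrsf9 (0.60), Tnfrsf12a (0.56), Tnfrsf1a (0.39) and cluster 6972415 (-0.30) passed in rescue minus wild type.

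Counted over the 9 tested clusters, 1 was called higher in null than in wild type, beside 8.49% of all clusters, and 0 lower, beside 6.84%, so that 11.1% were called in either direction, a share near the background of 15.3%. The shares over all clusters include unnamed ones, while all members carry a symbol. In rescue minus wild type, 3 were called higher, beside 10.4% of all clusters, and 1 lower, beside 5.05%. These differences were small in intensity: the rescue mean was 1.71 times the wild-type mean for Tnfrsf9, 1.5 times for Tnfrsf12a, 1.31 times for Tnfrsf1a and 0.809 times for cluster 6972415. Over all 10 clusters, both rescue arrays lay above both wild-type arrays in 6, beside 32.8% of all clusters, and below them in 2, beside 24.8%. Both null arrays lay above both wild-type arrays in 2, beside 28.1%, and below them in 5, beside 28.2%. Tnfrsf26, whose rescue and null values chose the group, is among the 6 and among the 5, so both counts are descriptions only. In rescue minus null, the contrast behind the choice of members, 5 of 10 had both rescue arrays above both null arrays, beside 31.2% of all clusters, and 4 had them below, beside 24.4%, from which nothing is read because that contrast chose the members. The comparisons share arrays in pairs, so the values for a member are not independent of each other. After median centring, the median of all clusters in rescue minus null moved to -0.10, against 0.02 as deposited, while 9 of 10 members kept their sign over the alternatives and Tnfrsf19 changed sign in 1.

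The genes whose pattern over the 6 arrays was most like that of Tnfrsf26 were taken from 855 clusters with 1 symbol and line means spanning 1 log2 unit or more. The 855 include Tnfrsf26 itself. Pearson's r of log2 values was 0.999 for Hdhd3, 0.998 for Ppic, a cyclophilin gene, 0.998 for Depdc7, 0.997 for Golm2 and 0.996 for Plscr2, a phospholipid scramblase family gene. These are descriptions of 6 arrays from 3 lines, with no test. Plscr2 came nearest in size, at 730 and 646 in rescue cells, 32.1 and 38.5 in null cells, and 196 and 232 in wild-type cells. The other 4 spanned less, for example Hdhd3 at 618 and 605 in rescue cells, 272 and 280 in null cells, and 444 and 448 in wild-type cells.

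Other TNF receptor genes were next counted. Of 15 measured, 3 were called lower and 1 higher in null than in wild type (26.7%, beside 15.3% of all clusters), 3 higher and 1 lower in rescue than in null (26.7%, beside 9.75% of all clusters higher and 5.62% lower), and 2 higher and 0 lower in rescue than in wild type (13.3%, beside 15.4%). The same 4 genes made up the calls of the first 2 comparisons. Fas, the prototype death receptor and a p53 target, read 355 and 308 in rescue cells, 93.4 and 98.1 in null cells, and 195 and 216 in wild-type cells. Eda2r, the receptor of an ectodysplasin isoform and also a p53 target, read 1758 and 1766 in rescue cells, 575 and 624 in null cells, and 1287 and 1480 in wild-type cells. Both had the order of Tnfrsf26, rescue above wild type above null, with no overlap between lines. Tnfrsf18, which encodes the costimulatory receptor GITR, read 185 and 187 in rescue cells, 76.5 and 97.9 in null cells, and 245 and 238 in wild-type cells. Tnfrsf14, which encodes the LIGHT receptor HVEM, ran the other way, at 139 and 134 in rescue cells, 309 and 299 in null cells, and 156 and 150 in wild-type cells. All 4 kept their calls in null minus wild type and in rescue minus null under 15 of 15 alternatives (highest adjusted p 0.0398). In rescue minus wild type, Fas (0.65, adjusted p = 0.0128) lost its call without wild-type replicate 1, without wild-type replicate 2 and without rescue replicate 1 (up to 0.0787), and Eda2r (0.35, adjusted p = 0.0489) lost it in 11 of 15.

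Most ligand genes of the family were not called, and the called shares lay near the 15.3%, 15.4% and 15.4% of all clusters. All clusters include unnamed ones, which the list does not hold. Of 16 measured, 2 were higher and 0 lower in null than in wild type (12.5%), 2 higher and 1 lower in rescue than in null (18.8%; 1 higher and 2 lower after quantile normalization or median centring), and 2 higher and 0 lower in rescue than in wild type (12.5%). Without rescue replicate 1, 0 of the 3 and 0 of the 2 calls against null and wild type were kept, and without wild-type replicate 2 also 0 of those 2. Tnfsf15, the ligand of Tnfrsf25, read 236 and 196 in rescue cells, 291 and 329 in null cells, and 123 and 107 in wild-type cells (null minus wild type 1.32, adjusted p = 0.00196). Tnfsf10, which encodes TRAIL, the ligand of the decoys above, read 28.2 and 31.7 in rescue cells, 59.3 and 71.8 in null cells, and 16.7 and 23.4 in wild-type cells. It was called higher in null than in wild type (1.18, adjusted p = 0.00641) and lower in rescue than in null (-0.82, adjusted p = 0.0216, lost in each of 4 fits without a null or rescue array, up to 0.114). Tnfsf13b, which encodes the B-cell factor BAFF, read 112 and 112 in rescue cells, 61.7 and 52.9 in null cells, and 69.2 and 59.5 in wild-type cells (rescue minus null 0.81, adjusted p = 0.0104, lost without null replicate 2 and without rescue replicate 1, up to 0.0605; rescue minus wild type 0.68, adjusted p = 0.0175, lost without each of 4 arrays, up to 0.103). Tnfsf9 read 404 and 344 in rescue cells, 166 and 260 in null cells, and 301 and 292 in wild-type cells. Its rescue minus null call (0.79, adjusted p = 0.0474) was the weakest of the list. It was lost with a pseudocount of 1, after either scaling, without the intensity trend, with only the 2 lines compared and with the replicate block. Tnf itself averaged 33.6 ± 9.30 in rescue cells, 25.2 ± 10.3 in null cells and 34.4 ± 15.1 in wild-type cells (SD, n = 2 each), and no comparison called it.

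Adaptor and death signalling genes were called in both directions. Of 21 measured, 5 were called higher and 2 lower in null than in wild type (33.3%; 3 higher and 4 lower after quantile normalization), 4 higher and 4 lower in rescue than in null (38.1%; 5 and 5 after quantile normalization, 3 and 5 after median centring), and 4 higher and 2 lower in rescue than in wild type (28.6%; 3 and 2, and 2 and 2), beside 15.3%, 15.4% and 15.4% of all clusters. The shares over all clusters count unnamed clusters, which the list does not hold. Many of the calls in this list were lost in fits without an array of the lines compared, in which fewer of all clusters were called as well. In null minus wild type 1 of the 7 was kept without wild-type replicate 1, without wild-type replicate 2 or without null replicate 2, and 2 without null replicate 1 or without the intensity trend, when 5.03% to 9.88% of all clusters were called. In rescue minus null 2 of the 8 were kept without null replicate 1 and 5 without null replicate 2 or rescue replicate 1. In rescue minus wild type 2 to 4 of the 6 were kept without any 1 of the 6 arrays. Their median difference was 0.14 in rescue minus null, beside 0.02 over all clusters. Ripk3, the kinase of necroptosis, read 347 and 382 in rescue cells, 259 and 330 in null cells, and 1584 and 1632 in wild-type cells. It was low in both MK546 lines (null minus wild type -2.40, adjusted p = 1.51e-04; rescue minus wild type -2.10, adjusted p = 2.58e-04), and both calls held in 15 of 15 alternatives. Mlkl, the membrane-breaking target of Ripk3, averaged 2065 ± 85.8 in rescue cells, 3403 ± 198 in null cells and 2560 ± 3.39 in wild-type cells, and was called lower in rescue than in null (-0.72, adjusted p = 0.00284). Bid, which links death receptors to mitochondria, averaged 1806 ± 121 in rescue cells, 1213 ± 52.0 in null cells and 1082 ± 34.8 in wild-type cells, and was called higher in rescue than in wild type (0.73, adjusted p = 0.00283).

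NF-κB factors and their regulators were called in 7 of 15 cases in null minus wild type (46.7%, 4 higher and 3 lower; 4 and 2 after quantile normalization, 4 and 1 after median centring), in 6 of 15 when rescue was set against null (4 higher and 2 lower; 4 and 3 after either scaling), and in 6 of 15 in rescue minus wild type (5 higher and 1 lower; 1 and 1 after quantile normalization, 3 and 1 after median centring). Over all clusters, unnamed ones included, 15.3%, 15.4% and 15.4% were called in the same order of comparisons. Tnip3 encodes an inhibitor that binds A20. It read 1965 and 1665 in rescue cells, 102 and 105 in null cells, and 94.7 and 102 in wild-type cells. It was high in rescue cells, with null and wild type overlapping. The differences were 3.93 from null (adjusted p = 5.54e-05) and 3.99 from wild type (adjusted p = 1.14e-05). Nfkbiz, an atypical IκB gene of epithelial inflammation, averaged 1235 ± 10.6 in rescue cells, 784 ± 5.76 in null cells and 1003 ± 29.7 in wild-type cells (rescue minus null 0.64). Nfkb2, which encodes the p100 subunit, ran the other way at 470 ± 49.3 in rescue cells, 642 ± 24.3 in null cells and 393 ± 2.80 in wild-type cells (null minus wild type 0.68, adjusted p = 0.00592, lost without wild-type replicate 1 at 0.0531). Of the 7 null minus wild type calls in this list, 3 were kept without the intensity trend, when 9.88% of all clusters were called. Fits without a null or wild-type array kept fewer of them, and fewer of all clusters were called in those fits as well. Most calls of this list in rescue minus wild type were lost in each fit without an array. In most of those fits the share of the list was not above that of all clusters. More of the rescue minus null calls were kept.

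Of 22 TNF and NF-κB target genes, 10 were called in each comparison (45.5%): 7 lower and 3 higher in null than in wild type (5 and 4 after quantile normalization or median centring), 7 higher and 3 lower in rescue than in null, and 6 higher and 4 lower in rescue than in wild type. Of the 10 in null minus wild type, 5 were kept without either wild-type array and 6 without either null array or without the intensity trend, when 5.03% to 9.88% of all clusters were called. Of the 10 in rescue minus null, 6 were kept without either null array and 7 without either rescue array, and of the 10 in rescue minus wild type, 9 or 10 without any 1 array. With all 6 arrays, 15.3%, 15.4% and 15.4% of all clusters were called in these comparisons, unnamed clusters included. The median difference of the target genes was -0.17, 0.23 and 0.09, beside -0.01, 0.02 and 0.03 over all clusters. Nos2, the inducible nitric oxide synthase gene, read 1461 and 1636 in rescue cells, 295 and 331 in null cells, and 1549 and 1697 in wild-type cells, so rescue and wild type overlapped. Csf2, which encodes GM-CSF, read 598 and 481 in rescue cells, 165 and 158 in null cells, and 1319 and 1345 in wild-type cells, and in rescue cells lay between the other lines. Lcn2, a lipocalin gene of innate defence, read 2009 and 1650 in rescue cells, 70.9 and 89.0 in null cells, and 300 and 281 in wild-type cells, in the order of Tnfrsf26. The neutrophil chemokine genes Cxcl1 and Cxcl2 differed between MK546 and wild type in opposite directions, with Cxcl1 at 11.6 ± 5.60 in rescue cells, 16.1 ± 2.88 in null cells and 2600 ± 36.1 in wild-type cells, and Cxcl2 at 2135 ± 268, 1292 ± 115 and 48.2 ± 11.4. Several of these genes were known from earlier results to differ strongly between the lines, so the shares describe the list and do not set it apart.

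**Figure D4:**
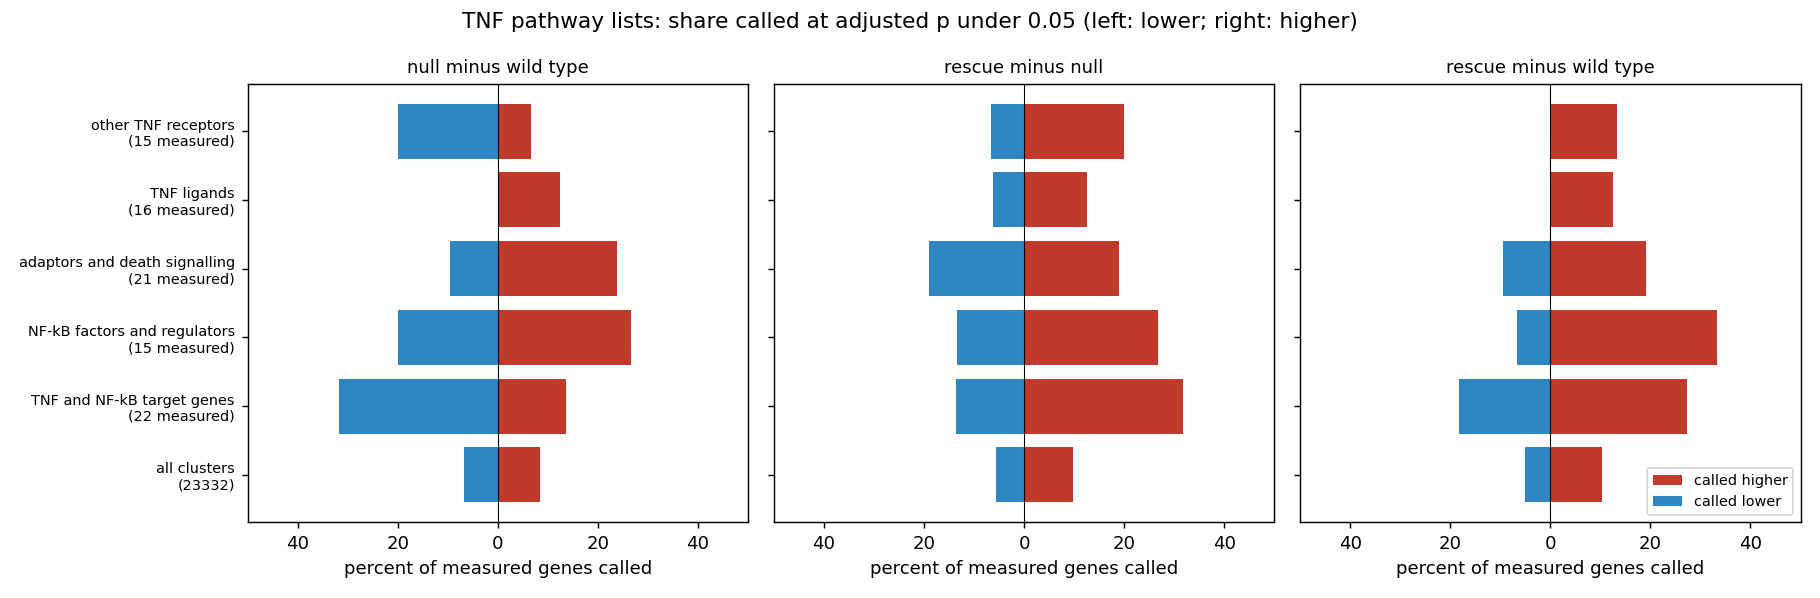
Percent of measured genes called at an adjusted p under 0.05 in 5 lists of TNF pathway genes and over all 23332 clusters, higher to the right of 0 and lower to the left, for the 3 pairs of lines. All clusters include 7317 without a gene symbol, unlike the lists. TNF and NF-κB target genes were called in 45.5% of cases in each comparison with all 6 arrays (22.7% to 40.9% in null minus wild type without an array) and TNF ligands in 12.5% to 18.8%.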

How the data were processed

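The authors deposited 1 linear PLIER intensity per transcript cluster and array (Affymetrix Mouse Exon 1.0 ST, core exons only), per the labels. The submitters' processing notes name Affymetrix Expression Console, and the study design names another program, the Exon Array Computational Tool. How arrays were background-corrected and normalized, program versions and the genome build were not given in the sources used here. Groups and replicate numbers came from the titles.

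Values were analysed as log2(intensity + 16) with no further scaling or filter. The model in limma 3.58.1 (R 4.3.3) had 1 mean for each line and used all 6 arrays (lmFit, eBayes with an intensity trend, 3 residual and 3.00 prior degrees of freedom). Two-sided p-values were adjusted by Benjamini and Hochberg's method across the 23332 clusters of a comparison, with calls made at adjusted values under 0.05. With 2 arrays per line, their number limits precision. On simulated data with 23332 clusters, clusters changed by 0.5 log2 units, near the size of the larger tested member differences, were recovered in 14% of cases in null minus wild type, 30% in rescue minus wild type and 22% in rescue minus null. For 1 log2 unit these were 60%, 64% and 74%, with 5 false calls in each comparison. The simulation changed 50 clusters each by 0.5, 1, 2 and 3 log2 units. It gave 137 to 150 calls per comparison, against 3578 to 3599 in the data. The adjusted threshold was therefore stricter in the simulation, and these shares do not measure recovery in the data.

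The platform annotation gave 14996 clusters 1 symbol and 1019 several, and left 7317 unnamed here. A gene with several clusters was read from the brightest. Members and lists were chosen with earlier results of these data known, and no list was tested as a set. The shares over all clusters were not matched to the members or lists by brightness or by having a symbol. Named genes were the members, Itga3 and up to 4 genes of each list with the smallest adjusted p in each comparison. The 5 measured neighbours on each side of the Tnfrsf26 locus and the 5 genes most correlated with Tnfrsf26 were also named. Tnf, Krt5, Krt14, Ptprc, Cd3e, Cd4, Cd8a, Cd68, Nkg7, Col1a1, Col1a2, Col3a1, Pdgfra and 4 called keratinocyte markers were named outside these rules. Same-numbered arrays of different lines had deviations from their line means that correlated at r between -0.02 and 0.05, so the numbers do not pair the arrays. Alternatives were other pseudocounts, scalings, a filter on dim clusters, no intensity trend, only the 2 lines compared, only clusters with 1 symbol, a replicate block and leaving out each array.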

Additional observations from a re-analysis of the deposited data

How the results depend on the processing

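Over the whole table, 3578 clusters were called in null minus wild type (1174 to 4171 over the alternatives), 3585 in rescue minus null (1304 to 4281) and 3599 in rescue minus wild type (1088 to 3964). Calls higher made up 55.4% of the first with deposited values, 53.2% once quantile normalized and 68.1% with median centring. The same shares were 63.4%, 49.9% and 40.9% for rescue minus null, and 67.2%, 53.5% and 60.0% for rescue minus wild type.

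Member calls in null minus wild type numbered 1 as deposited, 2 with only clusters above the median cluster, which leaves fewer members, and 1 to 1 without an array. In rescue minus wild type they numbered 4, but 1 without the intensity trend, 2 with only the 2 lines compared, 2 with the replicate block (Tnfrsf9 at an adjusted p of 0.0531 and cluster 6972415 at 0.0525) and 0 to 2 without an array. Rescue arrays lay above null arrays for 5 members, and for 5 to 6 without an array. Small differences in null minus wild type changed sign for Tnfrsf1b with quantile normalization (0.01), for Tnfrsf11b with median centring (0.02) and for Tnfrsf9 without null replicate 1 (-0.04, within a range of -0.04 to 0.13), none of them called.

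In the lists, without the intensity trend null minus wild type called 2 adaptor, 3 NF-κB and 6 target genes in place of 7, 7 and 10, and rescue minus wild type called 1 other receptor, 3 adaptors and 1 NF-κB gene in place of 2, 6 and 6. The replicate block left 3 adaptors and 2 NF-κB genes in rescue minus wild type, and changed no other count by over 1.5 times. In that comparison 1 other receptor was called with a pseudocount of 1, after either scaling and with only the 2 lines compared, and 2 NF-κB genes after quantile normalization and with only the 2 lines compared. With only clusters above the median cluster, 1 ligand was called in null minus wild type and 1 in rescue minus wild type, since dim ligands were not tested. With only clusters with 1 symbol, 5 ligands were called in rescue minus null.

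Without an array, calls in null minus wild type ranged over 4 to 5 for other receptors, 2 to 3 for ligands, 1 to 6 for adaptors, 0 to 5 for NF-κB genes and 5 to 9 for targets. In rescue minus null they ranged over 4 to 5, 0 to 2, 2 to 7, 3 to 4 and 6 to 9. In rescue minus wild type they ranged over 0 to 1, 0 to 2, 2 to 4, 1 to 1 and 9 to 10. In these fits the line with 1 array is assumed to vary like the others. The cause of these changes was not tested beyond the smaller number of arrays or clusters. Dim members (Tnfrsf9, Tnfrsf11b and Tnfrsf19) lay below the median cluster, and no detection values were at hand.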
